A study of Rattus norvegicus with 18 samples.

Results

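The miR-148 and miR-152 family was followed here through small-RNA sequencing libraries of rat heart. Its members were taken by name: every listed mature miRNA derived from miR-148a, miR-148b or miR-152, which gave 6 of the 599 miRNAs in the deposited values, a 5p and a 3p arm from each of 3 hairpins. The 18 libraries fall into 3 groups of 6. Wistar Kyoto rats (WKY, the inbred normotensive strain, given as normal) form one group, spontaneously hypertensive rats (SHR, an inbred strain that develops high blood pressure without intervention) another, and SHR that received QDG the last. The design text says that SHR received NS or QDG, and neither abbreviation is spelled out, nor are dose, duration, age or sex given, in the sources used here. No genetic alteration other than strain is named. QDG and SHR libraries share the strain and differ in treatment, whereas WKY differs from SHR in its whole inbred background as well as in blood pressure.

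A hairpin precursor of a miRNA is cut into a duplex, and either strand, the 5p or the 3p arm, can be loaded into an Argonaute protein. Loaded strands find messages mainly through the seed, the bases next to their 5′ end, so miRNAs with the same seed can recognise the same sites. The miR-148 and miR-152 family is known for repression of DNA methyltransferase messages, among them Dnmt1, and miR-148a in liver for repression of the LDL receptor and of the cholesterol exporter Abca1. The family's 3p arms are the strands for which these targets were described.

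The mature sequences are shown because the shared seed defines the family and because the bases outside it are what separates its 3p arms in sequencing. They are RefSeq's, on assembly GRCr8, written 5′ to 3′ with the seed (bases 2 to 8) in capitals, and 5 of the 6 members had an entry (miR-148b-5p did not).
miR-148a-3p: uCAGUGCAcuacagaacuuug
miR-148b-3p: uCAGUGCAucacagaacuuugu
miR-152-3p: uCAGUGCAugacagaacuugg
miR-148a-5p: aAAGUUCUgagacacucugacuc
miR-152-5p: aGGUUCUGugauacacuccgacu

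All 3 of the 3p arms carry the seed CAGUGCA, which 3 of 693 rat mature entries held, so no entry outside the family shared it. Of the 599 listed miRNAs 543 had an entry, and the seeds of the rest were not checked. The 5p arms have other seeds, AAGUUCU and GGUUCUG, each found in 1 entry. Counting from the 5′ end, miR-148b-3p differs from miR-148a-3p by C9U and U10C and has 1 more base at its 3′ end. miR-152-3p differs from miR-148a-3p by C9U, U10G and U20G, and from miR-148b-3p by C10G and U20G, with 18 and 19 of 21 aligned bases identical. The 3p arms can thus be told apart only by 2 or 3 bases, and the sources used here do not give how the authors assigned reads that fit more than 1 of them.

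The hairpins lie on different chromosomes. Mature miR-148a-3p is at chr4:81664447-81664467 on the minus strand, in no annotated gene, between the protein-coding genes Npvf and LOC102549423. miR-148b-3p is at chr7:136299930-136299951 on the plus strand, inside Copz1. miR-152-3p is at chr10:82329435-82329455 on the plus strand, inside Copz2. Copz1 and Copz2 encode paralogous subunits of the COPI coat of transport vesicles, and each hairpin lies on the same strand as the gene around it.

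Levels are reads per 1000000 (RPM) as the authors normalized them, which is not per 1000000 miRNA reads. The reads over all miRNAs numbered between 6420666 and 10169581 per library. The 4 cardiac muscle miRNAs miR-1-3p, miR-133a-3p, miR-208a-3p and miR-499-5p summed to between 136912 and 203221 RPM, and none of them was at 0. One library in each of WKY and SHR stood apart: SHR replicate 5 scored 7.58 on the second principal component, where the other libraries lay between -3.69 and 3.40, and WKY replicate 1 scored 6.25 on the third, where the others lay between -2.51 and 2.0. Calls that change without them are given both ways.

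miR-148a-3p dominated the family. Over the 18 libraries it averaged 20914 RPM and ranked between 14 and 21 among the 599 miRNAs. miR-152-3p followed at 3105 RPM (ranks 34 to 47) and miR-148b-3p at 1353 RPM (ranks 54 to 68). The order of these 3 was the same in 18 of 18 libraries, and their ranges did not meet: the lowest miR-148a-3p value was 17355 RPM against a highest miR-152-3p value of 3817 RPM, and the lowest miR-152-3p value was 2575 RPM against a highest miR-148b-3p value of 1783 RPM. In means, miR-148a-3p was 6.74-fold above miR-152-3p, and miR-152-3p 2.29-fold above miR-148b-3p. Mature miRNAs are of nearly equal length, but ligation and amplification favour some ends over others, so these folds compare sequenced reads and not molecules.

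The 5p arms were far scarcer. miR-148a-5p averaged 114.2 RPM, miR-148b-5p 40.1 RPM and miR-152-5p 33.8 RPM. The last pair was not separated: miR-148b-5p lay above miR-152-5p in 15 of 18 libraries, and their ranges overlapped. All 6 members stood at 1 RPM or more in all 18 libraries, the lowest value of any being 23.5 RPM, so the filter on low values removed none.

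Together the 6 members made up between 1.51% and 2.49% of all miRNA reads in a library. The 3p arms held between 99.1% and 99.3% of the family's reads. The hairpins nevertheless differed in how much 5p arm accompanied the 3p arm. Of the reads of its hairpin, the 5p arm took 0.544% ± 0.0510 for miR-148a, 1.08% ± 0.171 for miR-152 and 2.95% ± 0.503 for miR-148b (SD, n = 18 libraries), and this order held in 18 of 18 libraries. The hairpin with the most abundant 3p arm thus had the smallest 5p share, and the one with the scarcest 3p arm the largest. The 3p reads are part of the total that the share is taken of, so the 2 orders are not independent. Ends favoured in ligation and amplification bear on these shares too.

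**Figure D1:**
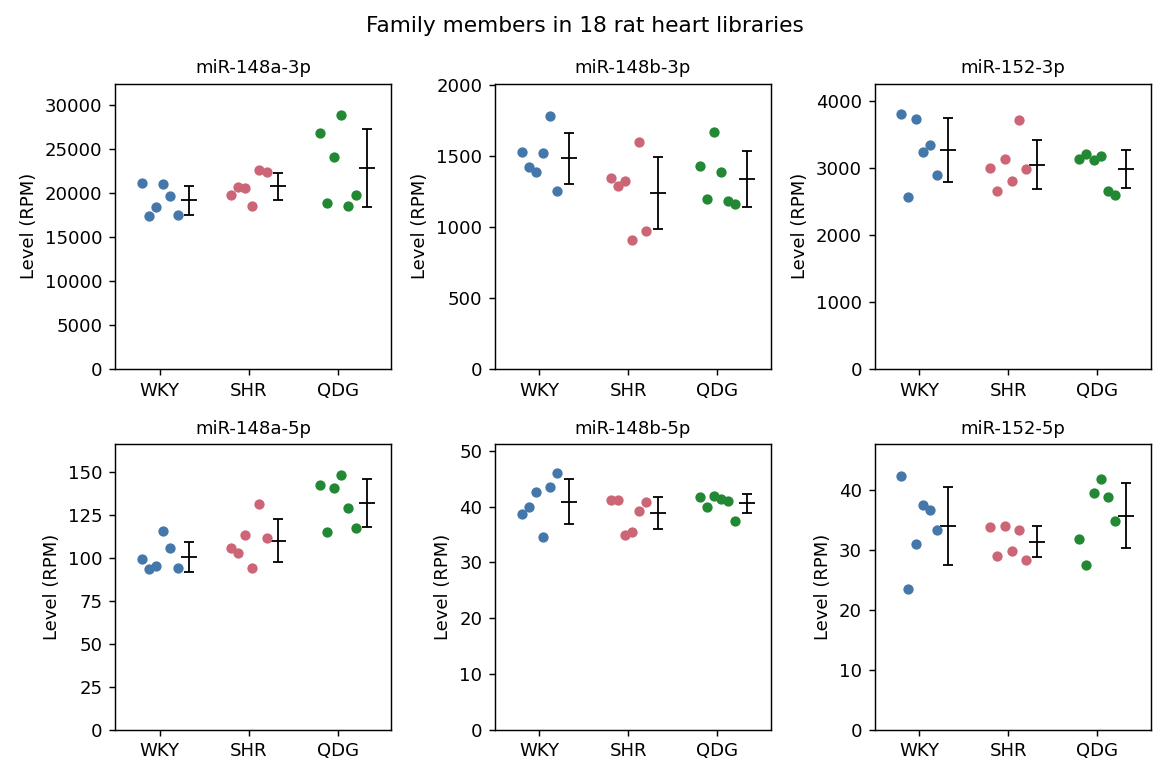
Level of each family member (y axis, RPM, starting at 0) in each of the 18 libraries, by group (x axis). Points are libraries in order of replicate number, and the bar beside them is the mean with its SD (n = 6). QDG libraries of miR-148a-3p fall into 3 between 24117 and 28895 RPM and 3 between 18507 and 19816 RPM, and miR-148a-5p is the only member for which 5 of 6 QDG libraries lie above the highest WKY library.

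The comparison of SHR with WKY asks what differs in hearts of the hypertensive strain. No family member passed the test: 0 of 6 were called by limma, against 23.2% of the 410 miRNAs tested, and 0 of 6 had groups that did not overlap, against 10.2%. The median log2 change of the members was -0.08, beside -0.07 over all miRNAs tested. Whether each library is a separate rat is not in the labels. Should some libraries share a rat, the p-values of all 3 comparisons would measure the spread between libraries only, which may be technical.

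miR-148b-3p had the largest difference of the family in that comparison. Its lowest, median and highest levels were 1252, 1471 and 1783 RPM in WKY and 907, 1308 and 1597 RPM in SHR. SHR replicates 4 and 6 lay below the lowest WKY library, and SHR replicate 5 lay above 5 of the 6 WKY libraries. The group means were 1483 ± 179 and 1239 ± 257 RPM (SD, n = 6), and the log2 change was -0.28 ± 0.12 (SE), with 5 of 6 SHR libraries below the WKY mean. It missed the threshold (limma, adjusted p = 0.105). Without SHR replicate 5, the library that stood apart, the log2 change was -0.36 and passed (limma, adjusted p = 0.0352). With WKY replicate 1 also left out it was -0.35 (limma, adjusted p = 0.0488). Other omissions made the change smaller: it was -0.19 without SHR replicate 4 and -0.21 without SHR replicate 6 (limma, adjusted p = 0.283 and 0.249).

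The other members differed less between the strains. miR-148a-3p ranged from 17355 through a median of 18996 to 21086 RPM in WKY and from 18491 through 20635 to 22564 RPM in SHR, so that the groups overlapped over most of their range. Its log2 change was 0.12 ± 0.10 (limma, adjusted p = 0.450). miR-152-3p ranged from 2575 through 3295 to 3817 RPM in WKY and from 2657 through 2998 to 3730 RPM in SHR, a log2 change of -0.09 ± 0.10 (limma, adjusted p = 0.557). Without SHR replicate 5 it was -0.15 and without WKY replicate 1 it was -0.05, neither of them called. With all libraries in, SHR lay wholly inside the WKY range. The 5p arms of miR-148a, miR-148b and miR-152 had log2 changes of 0.12, -0.07 and -0.09, with adjusted p-values between 0.422 and 0.656 (limma). Without SHR replicate 5 that of miR-148a-5p was 0.07, and without WKY replicate 1 that of miR-152-5p was -0.03. Under upper quartile scaling the changes of miR-148b-5p, miR-152-3p and miR-152-5p became slightly positive, so no direction is given for them.

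**Figure D2:**
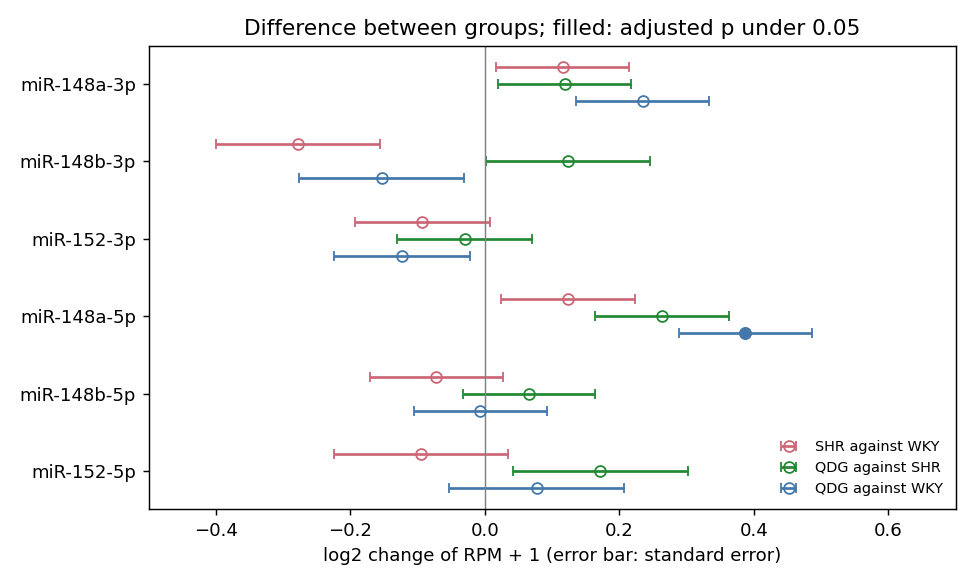
Log2 change of RPM + 1 for the 6 members (x axis, limma estimate with its SE) in the 3 comparisons, with members on the y axis. Filled points have an adjusted p under 0.05, which holds for miR-148a-5p in QDG against WKY and for no other point.

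QDG against SHR asks what the treatment did within the hypertensive strain. In this comparison 0 of 6 members were called by limma, and neither was any of the 410 miRNAs (0.0%). The same holds for groups that did not overlap (0.0%). edgeR and DESeq2 on the recovered reads also called 0. In limma 15 of the 410 had an unadjusted p under 0.05, a smaller share than the 0.05 expected when nothing differs. The members' median log2 change was 0.12, beside 0.02 over all tested.

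miR-148a-5p was 1 of those 15. Its lowest, median and highest levels were 94.2, 108.6 and 131.5 RPM in SHR and 115.2, 134.7 and 148.1 RPM in QDG. QDG libraries lay above the SHR mean in 6 of 6 and above the highest SHR library in 3 of 6. The log2 change was 0.26 ± 0.10, a 1.20-fold difference (limma, adjusted p = 0.983). The other 5 members had log2 changes between -0.03 for miR-152-3p and 0.17 for miR-152-5p, each with a limma adjusted p of 0.983. Without SHR replicate 5 the change of miR-148b-3p went from 0.12 to 0.20 and that of miR-152-3p to 0.03, neither of them called.

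The third comparison, QDG against WKY, sets treated hypertensive hearts beside the normotensive strain, and so joins strain and treatment in 1 difference. It shares its WKY libraries with the comparison of SHR and WKY. Only miR-148a-5p was called, 1 of 6 members against 17.8% of the 410 miRNAs, which for 6 members is close to the background. None of the 6 members had groups that did not overlap, against 8.05%. The members' median log2 change was 0.04, beside -0.06 over all tested.

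miR-148a-5p rose 1.31-fold in this comparison. Its levels in WKY had been 93.3 at the lowest, 97.4 at the median and 115.4 RPM at the highest, and 5 of 6 QDG libraries lay above that highest value. QDG replicate 2, at 115.2 RPM, fell just short of it. The WKY mean was 100.5 ± 8.62 RPM, the SHR mean 109.9 ± 12.6 and the QDG mean 132.0 ± 13.8 (SD, n = 6). The log2 change from WKY to QDG was 0.39 ± 0.10 (limma, adjusted p = 0.00547), with 6 of 6 QDG libraries above the WKY mean. It passed the threshold in each of 26 alternative settings, with log2 changes between 0.35 and 0.49 and the highest adjusted p at 0.0192 (limma, edgeR or DESeq2). SHR lay between the other groups in its mean and differed from neither by an adjusted p under 0.05.

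The 3p arm of the same hairpin did not pass. miR-148a-3p had a lowest, median and highest level of 18507, 21967 and 28895 RPM in QDG. QDG replicates 1, 3 and 4, at 26796, 24117 and 28895 RPM, lay above every WKY and SHR library, while the other 3 lay between 18507 and 19816 RPM, inside the WKY range. The coefficient of variation was 19.4% in QDG, 8.69% in WKY and 7.47% in SHR, where counting error alone would give between 0.28% and 0.31%. The log2 change from WKY to QDG was 0.23 ± 0.10 (limma, adjusted p = 0.103), with 4 of 6 QDG libraries above the WKY mean. It passed without QDG replicate 5 (limma, log2 change 0.29, adjusted p = 0.0443) and under upper quartile scaling (limma, log2 change 0.34, adjusted p = 0.0277). In 24 of 26 alternative settings it did not pass. With 1 library left out at a time its log2 change lay between 0.16 and 0.29 (limma, highest adjusted p = 0.255).

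miR-148b and miR-152 did not pass in QDG against WKY. miR-148b-3p ranged from 1160 through a median of 1291 to 1668 RPM in QDG, with a log2 change from WKY of -0.15 ± 0.12 (limma, adjusted p = 0.434). miR-152-3p ranged from 2599 through 3133 to 3218 RPM, with a log2 change of -0.12 ± 0.10 (limma, adjusted p = 0.446). Every QDG library of miR-152-3p was below the WKY mean of 3271 ± 478 RPM, and every one was inside the WKY range. The scarce 5p arms had log2 changes of -0.01 for miR-148b-5p and 0.08 for miR-152-5p (limma, adjusted p = 0.970 and 0.732). Without WKY replicate 1 the changes of miR-152-3p, miR-148b-5p and miR-152-5p were -0.08, -0.02 and 0.14, none of them called.

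Counting error bears mainly on the 5p arms. miR-152-5p rested on 127 to 278 reads per library and miR-148b-5p on 167 to 302, for which counting alone gives a coefficient of variation between 6.70% and 7.49%. In QDG the 6 miR-148b-5p libraries varied by 4.19%, below the 6.72% that counting gives. miR-148a-5p rested on 433 to 887 reads, with a counting error between 3.72% and 4.33% and an observed variation between 8.58% and 11.4%. For the 3p arms, at 5293 reads or more per library, counting error was below the observed variation in all 3 groups. These errors cover counting only, since reads without molecular identifiers are not independent molecules.

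Ratios between members of 1 library are nearly free of how that library was scaled, and 6 of them, taken on the log2 scale with 1 RPM added to each level, were tested over the 3 comparisons, 18 tests in all. With 6 libraries against 6, the smallest p the exact permutation test (two-sided) can give is 0.00216. In all, 5 of 18 tests had an unadjusted p under 0.05 and 2 of 18 an adjusted one.

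Both adjusted calls concern the balance of miR-148a-3p and miR-148b-3p, the seed-sharing arms that differ at bases 9 and 10. The ratio of miR-148a-3p to miR-148b-3p lay between 10.99 and 14.0 in WKY, with a median of 13.5. In SHR it lay between 14.1 and 23.0 with a median of 15.8, and in QDG between 14.5 and 20.8 with a median of 16.4. No WKY library reached the lowest SHR or QDG library, although the gap between 14.0 and 14.1 is narrow. Of the 410 single miRNAs, 10.2% did not overlap between SHR and WKY and 8.05% between QDG and WKY. How many ratios of other miRNA pairs separate in this way was not tested, so the separation cannot be called particular to the family. The WKY mean was 13.0 ± 1.18, the SHR mean 17.3 ± 3.56 and the QDG mean 17.1 ± 2.34 (SD, n = 6).

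On the log2 scale the ratio was 0.39 higher in SHR than in WKY and 0.39 higher in QDG than in WKY, with 6 of 6 libraries beyond the WKY mean in each (exact permutation p = 0.00216, adjusted p = 0.0195 over the 18 tests). These comparisons share the WKY libraries. Between QDG and SHR the difference was -0.0049 (exact permutation p = 0.961, adjusted p = 0.983). Leaving out any 1 WKY library ended both calls (exact permutation, adjusted p between 0.0584 and 0.117), although the remaining 5 WKY libraries still lay below all SHR and QDG libraries. Leaving out any 1 SHR or QDG library ended neither. With 1 library of the compared groups left out, the log2 difference lay between 0.31 and 0.45 in SHR against WKY. In QDG against WKY it lay between 0.33 and 0.43.

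The ratio of miR-148a-3p to miR-152-3p had a WKY mean of 5.93 ± 0.658, an SHR mean of 6.84 ± 0.658 and a QDG mean of 7.63 ± 1.14 (SD, n = 6), and the groups overlapped. Its log2 difference was 0.21 between SHR and WKY (exact permutation p = 0.0390, adjusted p = 0.175) and 0.36 between QDG and WKY (exact permutation p = 0.0130, adjusted p = 0.0779). Without QDG replicate 2 the latter was 0.43 and passed (exact permutation, adjusted p = 0.0130). It passed without no other single library, and over these omissions it lay between 0.30 and 0.43 (exact permutation, highest adjusted p = 0.156). The ratio of miR-148b-3p to miR-152-3p had means of 0.460 (WKY), 0.405 (SHR) and 0.448 (QDG), and none of its differences passed.

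Shares of the family's reads show the same values in another form. miR-148a-3p held 79.6% ± 1.28 of family reads in WKY, against 82.3% ± 1.48 for SHR and 83.2% ± 1.93 for QDG (SD, n = 6). miR-152-3p held 13.6%, 12.1% and 11.1%, and miR-148b-3p 6.16%, 4.90% and 4.93%. As a share of all miRNA reads, the whole family made up 1.67% ± 0.126 in WKY, against 1.81% ± 0.148 for SHR and 1.93% ± 0.353 for QDG, values that were not tested.

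**Figure D3:**
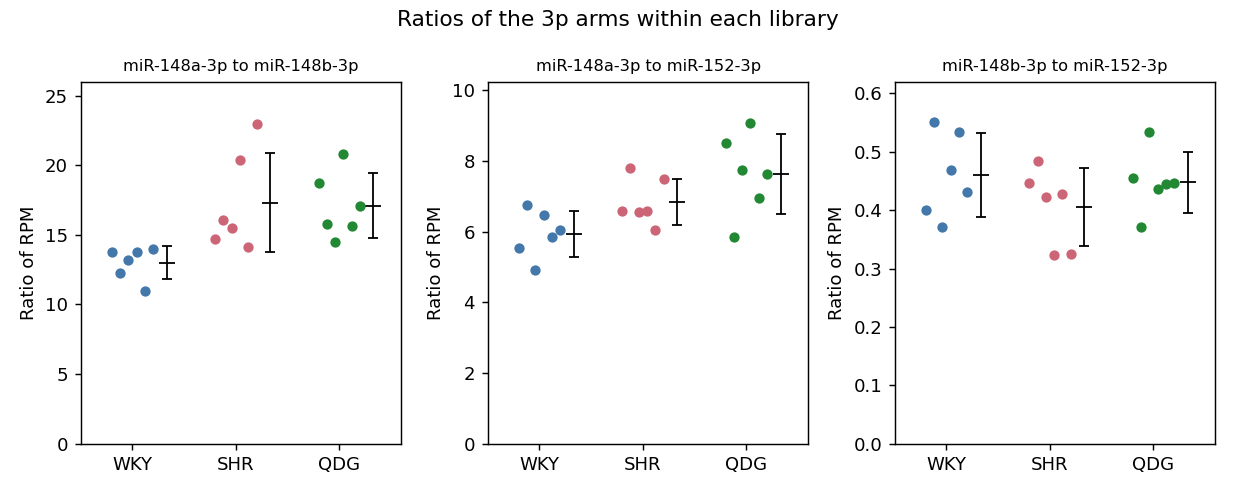
Ratio of RPM between the 3p arms (y axes, starting at 0) in each library, by group, with the mean and SD (n = 6). The ratio of miR-148a-3p to miR-148b-3p is at most 14.0 in WKY and at least 14.1 in SHR and QDG, and the other ratios overlap between groups.

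Of the arm ratios within a hairpin, none passed after adjustment. The 5p share of miR-148a reads averaged 0.523% ± 0.0278 in WKY, against 0.526% ± 0.0335 for SHR and 0.584% ± 0.0640 for QDG (SD, n = 6). The log2 ratio of its 5p to its 3p arm was 0.15 higher in QDG than in WKY (exact permutation p = 0.0498, adjusted p = 0.179) and 0.14 higher than in SHR (exact permutation p = 0.0714, adjusted p = 0.214). Hence the called rise of miR-148a-5p in QDG was not matched by a called change in its ratio to miR-148a-3p.

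Members were next compared in how they varied among libraries of 1 group, by correlating deviations from the group means of log2(RPM + 1) over the 18 libraries. There were 15 pairs, with p-values adjusted over them, and the points of a pair share library and scaling. The arms of miR-148a varied together, with Pearson r = 0.790 and Spearman rho = 0.816 (permutation, adjusted p = 0.0027 and 0.0045). Within groups r was 0.788 in WKY, 0.843 in SHR and 0.891 in QDG, and without the 2 libraries farthest from the median it was 0.839. QDG replicates 1, 3 and 4, the high libraries of miR-148a-3p, were also the 3 highest of miR-148a-5p.

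**Figure D4:**
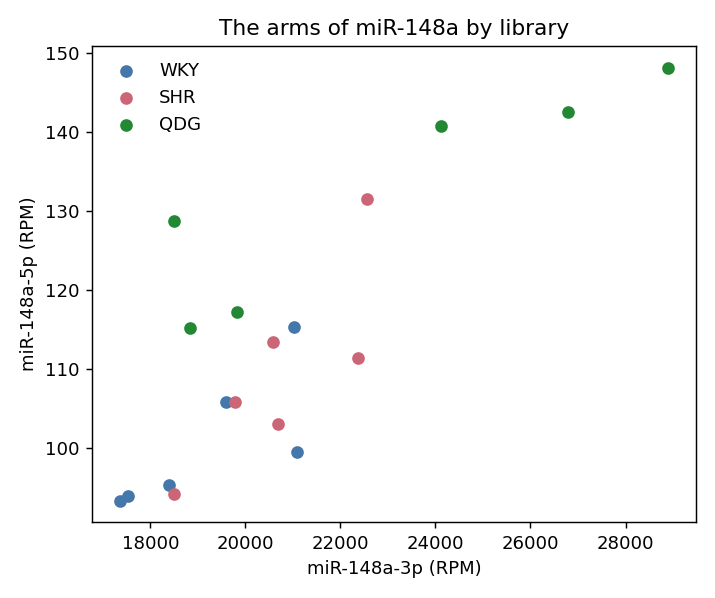
Level of miR-148a-5p (y axis, RPM) against miR-148a-3p (x axis, RPM) in the 18 libraries, coloured by group. QDG replicates 1, 3 and 4 lie at the upper right, from 140.8 to 148.1 RPM of miR-148a-5p, and the axes do not start at 0.

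The arms of the other hairpins did not vary together to the same extent. For miR-152 r was 0.431 (permutation, adjusted p = 0.177), and 0.170 without the 2 libraries farthest from the median. For miR-148b it was 0.130 (permutation, adjusted p = 0.846), with the scatter of miR-148b-5p near that of counting. Whether these correlations differ from that of miR-148a was not tested.

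Between hairpins, miR-148a-5p and miR-148b-3p gave r = 0.705 (permutation, adjusted p = 0.0259) and rho = 0.655 (permutation, adjusted p = 0.0528), so that the rank correlation missed the threshold. Among the 3p arms r was 0.516 for miR-148a-3p with miR-148b-3p, 0.518 for miR-148a-3p with miR-152-3p and 0.487 for miR-148b-3p with miR-152-3p (permutation, adjusted p = 0.0754, 0.0754 and 0.0972). None of these 3 passed.

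Some miRNAs outside the family had higher correlations with each 3p arm than the family's other 3p arms did. Among 243 miRNAs outside the family with a mean of at least 10 RPM, the 3 with the highest r over the 18 libraries are given as a description. For miR-148a-3p they were miR-504 (0.626), miR-106b-3p (0.610) and miR-195-3p (0.595). For miR-148b-3p they were miR-99b-5p (0.798), miR-181a-1-3p (0.729) and miR-100-5p (0.718), of which miR-99b-5p and miR-100-5p are relatives in sequence. For miR-152-3p they were miR-27b-3p (0.772), miR-27a-5p (0.666) and miR-101a-3p (0.655), the first pair from paralogous hairpins. The family's own 3p arms would have stood between place 10 and place 23 in each other's lists. None of these 9 was called by limma in any of the 3 comparisons. Over all 410 miRNAs the shares called were 23.2% in SHR against WKY, 0.0% in QDG against SHR and 17.8% in QDG against WKY.

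Other miRNAs reported to repress DNA methyltransferase messages, as the family does, were counted as a list of 9, all of them tested. In SHR against WKY 0 rose and 1 fell (median log2 change -0.20, beside -0.07 over all tested). In QDG against SHR 0 were called (median 0.01). In QDG against WKY 0 rose and 1 fell (median -0.10, beside -0.06). Over all 410 miRNAs, limma called 23.2% in SHR and 17.8% in QDG against WKY, so 1 of 9 is not above the background. The called member of the list was miR-29b-3p each time, a miRNA known to target de novo DNA methyltransferases and collagen messages. Its mean level was 576.9 ± 86.2 RPM among WKY libraries, against 433.8 ± 30.8 for SHR and 440.5 ± 57.4 for QDG (SD, n = 6). Its log2 change was -0.40 ± 0.11 in SHR (limma, adjusted p = 0.00711) and -0.39 ± 0.11 in QDG against WKY (limma, adjusted p = 0.0102).

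A list of 7 miRNAs reported to repress genes of cholesterol uptake or efflux had 5 members past the filter. None of the 5 was called by limma in any comparison. Their medians were -0.02 in SHR against WKY, 0.04 in QDG against SHR and 0.04 in QDG against WKY. In the same order, 23.2%, 0.0% and 17.8% of all 410 miRNAs were called. miR-27b-3p, the miRNA closest to miR-152-3p in its variation, belongs to this list.

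In bulk tissue a change in the number of cells of a type and a change in RNA per cell cannot be told apart, so markers of cells the hearts could hold are given beside the family. The cardiac muscle sum lay between 136912 and 164215 RPM in WKY, between 173318 and 199213 in SHR and between 156118 and 203221 in QDG. Of its 4 members only miR-1-3p was called, with a log2 change of 0.74 in SHR and of 0.70 in QDG against WKY (limma, adjusted p = 3.34e-08 and 9.46e-08). Against WKY the log2 changes of miR-133a-3p, miR-208a-3p and miR-499-5p were -0.01, -0.16 and -0.19 in SHR and -0.07, -0.03 and -0.13 in QDG, and none of these was called. The smooth muscle, fibroblast, endothelium and red blood cell lists had 0 called members in each comparison (limma). The shares called over all 410 miRNAs were 23.2% in SHR and 17.8% in QDG against WKY, and 0.0% in QDG against SHR.

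Of 5 leukocyte miRNAs, miR-155-5p was called higher in SHR against WKY (log2 change 0.48, limma, adjusted p = 0.0128), where 23.2% of all 410 were called. In QDG against WKY, where miR-148a-5p was called, miR-142-3p and miR-155-5p were higher by 0.38 and 0.41 (limma, adjusted p = 0.0422 for each). There 17.8% of all 410 were called. The other 3 leukocyte miRNAs were not called and differed in sign: against WKY, miR-150-5p was at -0.24 in SHR and -0.27 in QDG, miR-142-5p at -0.13 and 0.0069, and miR-223-3p at 0.22 and 0.09. The summed leukocyte level lay between 1094 and 1563 RPM in WKY, 1223 and 1407 in SHR and 1184 and 1433 in QDG, and its part in the miR-148a-5p result was not tested.

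Markers of liver, gut and pancreas, tissues in which miR-148a is abundant, are given last. The liver miRNA miR-122-5p lay between 0.610 and 18.02 RPM in WKY, 0.786 and 4.72 in SHR and 2.88 and 17.5 in QDG. Its highest QDG library, replicate 4 at 17.5 RPM, was also the highest of all for miR-148a-3p and miR-148a-5p, and its highest WKY library, replicate 4 at 18.02 RPM, was the highest WKY library of miR-148a-5p. Other libraries went the opposite way. WKY replicate 1, the highest WKY library of miR-148a-3p, had the lowest miR-122-5p of all 18 at 0.610 RPM, and QDG replicate 1, at 26796 RPM of miR-148a-3p, had the lowest of QDG at 2.88 RPM. In all 18 libraries miR-122-5p was at 18.02 RPM or less and miR-148a-3p at 17355 RPM or more. These data hold no liver library that would give the level of miR-148a beside miR-122-5p there. The part of liver RNA in the levels of miR-148a was not tested. Of 6 listed gut and pancreas miRNAs, 5 were in the data. They summed to between 996 and 1080 RPM in WKY, 1072 and 1177 in SHR and 1057 and 1204 in QDG. Most of this was miR-192-5p, with means of 779.7, 825.5 and 851.1 RPM. Of the 4 that were tested, 0 were called by limma in any comparison. The shares over all 410 miRNAs were 23.2% in SHR against WKY, 0.0% in QDG against SHR and 17.8% in QDG against WKY.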

How the data were processed

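Per the labels' protocols, total RNA of rat heart was taken up in Trizol and small-RNA libraries were made with an NEBNext kit. FastQC, TopHat2 and limma appear in the submitters' processing notes without versions or roles. The sources used here do not give the build, the annotation or the rule for reads that fit several miRNAs. The deposited signal is, per the file headers, a normalized read count per mature miRNA. All 10782 values lay within 0.01 of a whole read once divided by their library's step, so the authors appear to have scaled reads by a number particular to each library to reads per 1000000 (RPM). That number was below the reads over miRNAs in every library (in WKY replicate 1, 6556077 against 9463554). The RPM values of a library thus sum to more than 1000000 and are not shares of its miRNA reads. Reads over miRNAs numbered 6465025 to 9463554 in WKY, 6420666 to 10169581 in SHR and 6805472 to 8574447 in QDG.

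Groups and replicate numbers came from the library titles. Values were taken as log2(RPM + 1), so a fold change understates the change of scarce miRNAs. The 410 of 599 miRNAs that reached 1 RPM in 6 or more libraries were kept, and limma 3.58.1 in R 4.3.3, with trend and robust moderation, was fitted to all 18 libraries without covariates. Adjusted p-values are Benjamini-Hochberg over all 410, with a threshold of 0.05. The plan named limma for normalized values and edgeR for counts, and limma was used because the values are normalized. The fit was also run on simulated data as a check, with changes larger than those of the family. No result given here rests on that check. Ratios were compared by exact two-sided permutation tests, and correlations by permutation tests of 100000 draws (Python 3.11.15, scipy 1.17.1).

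The family, the lists and the tests were chosen with earlier results of these data known. The miRNAs to be named were all family members, for each 3p arm the 3 others of at least 10 RPM with the highest correlation, and the called members of the lists. Uncalled members of the cardiac muscle, leukocyte, liver, and gut and pancreas lists were named as well. Alternatives were edgeR 4.0.16, DESeq2 1.42.0 and limma-voom on the recovered reads, TMM, RLE and upper quartile scaling, scaling without the 10 most abundant miRNAs, pseudocounts of 0.1 and 5, other filters, a fit of only the groups compared, the replicate number as a block, and each library left out. Leaving out WKY replicate 1 and SHR replicate 5 together was added after earlier results were seen. Promoters and 3′ UTRs were not used here.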

Additional observations from a re-analysis of the deposited data

Results flagged for a closer look

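The log2 ratio of the 5p to the 3p arm of miR-148a in WKY replicate 1 was -7.71, the lowest of its group and apart from the other 5 WKY libraries, which lay between -7.58 and -7.50. The gap was 0.63 of the group's range, just above Dixon's critical value for 6 libraries. WKY replicate 1 also stood apart on the third principal component. In all, 39 groups of 6 values were examined in this way and 1 stood out, where chance flags about 1 in 20.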

How the results depend on the processing

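Of 468 alternative log2 changes of members, 445 kept direction and side of the threshold, 4 newly passed and 19 changed sign; of 270 alternative log2 ratios, these numbers were 235, 1 and 20, and 14 no longer passed. miR-148a-5p in QDG against WKY passed in all 26 of its alternatives. In SHR against WKY, the log2 change of miR-148b-5p became 0.0031 under RLE and 0.026 under upper quartile scaling, and upper quartile scaling gave 0.0079 for miR-152-3p and 0.0025 for miR-152-5p. In QDG against WKY, that of miR-148b-5p became 0.020 under TMM, 0.039 under RLE and 0.099 under upper quartile scaling, 0.015 with edgeR, 0.033 with DESeq2 and 0.019 with limma-voom; the cause was not tested for these changes. The number of members called was 2 in QDG against WKY under upper quartile scaling, and 1 in SHR against WKY without WKY replicate 1 and SHR replicate 5, where miR-152-3p in QDG against SHR became 0.029. A pseudocount of 5 gave 0.0061 for the log2 ratio of the arms of miR-152 in SHR against WKY. With 1 library left out at a time, members called numbered 0 to 1 in SHR against WKY and 1 to 2 in QDG against WKY, and ratios called 0 to 1 and 0 to 2, the 0 arising without any 1 WKY library. Over the same omissions, log2 changes of members lay between -0.053 and 0.027 (miR-148b-5p) and between -0.022 and 0.15 (miR-152-5p) in QDG against WKY, and between -0.069 and 0.029 for miR-152-3p in QDG against SHR. Log2 ratios lay between -0.022 and 0.025 (miR-148a arms) and between -0.065 and 0.040 (miR-152 arms) in SHR against WKY, between -0.064 and 0.082 (miR-148a-3p to miR-148b-3p) and between -0.13 and 0.020 (miR-148b arms) in QDG against SHR, and between -0.089 and 0.025 (miR-148b-3p to miR-152-3p) in QDG against WKY. Same-numbered libraries correlated between -0.17 and 0.23, over 0.1 in 7 of 18 pairs, and such values cannot settle whether the numbers pair them. With the replicate block limma called 93 miRNAs in SHR against WKY, 0 in QDG against SHR and 77 in QDG against WKY, and 0, 0 and 1 members. A sign-flip test with the replicate block called 0 ratios in SHR against WKY and 0 in QDG against WKY (adjusted p = 0.188 for miR-148a-3p to miR-148b-3p in each, where the smallest unadjusted p of this exact test is 0.0313). Depth limits mainly miR-148b-5p and miR-152-5p, which rest on 127 to 302 reads per library.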
